A study of Mus musculus with 11 samples.

Results

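The 10 genes described here encode secreted proteins of the extracellular matrix that bind cells as well as matrix: the SPARC family members Sparc and Sparcl1, periostin (Postn), tenascin C (Tnc), the thrombospondins Thbs1 and Thbs2, osteopontin (Spp1), fibronectin (Fn1), fibulin 2 (Fbln2) and the ADAMTS-like protein Thsd4. They were chosen by symbol and not by a cut-off on measured values, but with earlier results of these data known. Looked up by Entrez gene number, all 10 of the 10 were found among the 27179 genes of the count table. All 10 were also among the 17370 genes with enough reads to be tested. Matricellular proteins are secreted into the matrix but do little to build its fibres. They bind integrins, collagens and growth factors and thereby alter how cells attach to and sense the matrix. Fibronectin is itself a fibril that integrins assemble, and fibulin 2 and Thsd4 bind to elastic and fibrillin fibres. In the mammary gland the basal cells lie on the basement membrane and face the stroma, while the luminal cells line the duct.

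The libraries came from mammary glands of female C57BL/6 mice that carried an E-cadherin-GFP reporter and were 5 weeks old, in puberty, when the ductal tree grows from its terminal end buds (TEBs). TEBs and the ducts behind them were dissected under fluorescence, and from each the cells negative for blood and endothelial surface antigens (Ter119, CD31, CD45) and positive for CD29 and CD24 were sorted into luminal cells (high E-cadherin-GFP) and basal cells (low E-cadherin-GFP). Genotype, strain, age, reporter and gate were thus the same in all 4 groups, which differed in the structure dissected and in the GFP level sorted. Each library was made from polyA RNA of pooled mice, with 3 libraries each of basal duct, basal TEB and luminal TEB and 2 of luminal duct, numbered 1 and 3. The p-values measure the spread between these pools.

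Library totals ran from 27989137 to 49221436 reads assigned to genes. Mitochondrial transcripts took 4.34% to 10.9% of the reads in 8 libraries, 17.8% in basal TEB replicate 3, 28.5% in luminal duct replicate 3 and 37.5% in basal TEB replicate 1. The summed level of 8 basal markers, in CPM (counts scaled to library size and TMM factor), was 16300 to 20200 CPM in basal duct, 5510 to 8660 in basal TEB, 99.6 and 267 in luminal duct and 15.2 to 28.0 in luminal TEB. The summed level of 8 luminal markers was 322 to 564 CPM in the 6 basal libraries and 11500 to 17200 CPM in the 5 luminal libraries, in keeping with the labelled cell types.

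RefSeq windows around the start site (GRCm38.p6, 250 bases before it and 50 after it) were held for 7 of the 10 genes, 11 windows in all. Those of Sparc, Postn and Fbln2 are shown because, of the members with a window, these stood at the highest levels per length in basal cells, that of Thbs2 because its levels in basal TEB and basal duct ran opposite to those of its paralogue Thbs1, and that of Thsd4 because it was the member that passed the test between basal TEB and basal duct. Capitals mark a TATA box (TATAAA, read on either strand). They are written 5′ to 3′ on the gene's strand, at chr11:55420031-55420330 (minus strand) for Sparc, chr3:54360857-54361156 (plus) for the second Postn window, chr6:91212514-91212813 (plus) for Fbln2, chr17:14694213-14694512 (minus) for Thbs2 and chr9:60510986-60511285 (minus) for the first Thsd4 window.
Sparc: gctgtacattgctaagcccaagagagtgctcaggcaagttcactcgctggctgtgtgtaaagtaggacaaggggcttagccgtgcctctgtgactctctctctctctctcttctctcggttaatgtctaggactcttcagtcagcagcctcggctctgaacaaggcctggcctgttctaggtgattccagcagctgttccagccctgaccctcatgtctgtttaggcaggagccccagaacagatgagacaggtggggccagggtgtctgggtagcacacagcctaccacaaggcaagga
Postn: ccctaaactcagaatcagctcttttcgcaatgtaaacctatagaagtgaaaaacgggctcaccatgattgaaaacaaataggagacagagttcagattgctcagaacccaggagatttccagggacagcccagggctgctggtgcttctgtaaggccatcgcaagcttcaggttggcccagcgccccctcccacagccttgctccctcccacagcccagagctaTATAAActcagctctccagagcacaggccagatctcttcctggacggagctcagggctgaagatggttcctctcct
Fbln2: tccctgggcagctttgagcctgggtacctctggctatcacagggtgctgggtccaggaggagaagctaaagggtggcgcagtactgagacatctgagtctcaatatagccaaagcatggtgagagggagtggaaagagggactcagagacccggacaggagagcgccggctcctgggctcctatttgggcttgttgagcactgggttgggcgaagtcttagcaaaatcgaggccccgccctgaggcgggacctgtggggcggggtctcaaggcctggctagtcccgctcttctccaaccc
Thbs2: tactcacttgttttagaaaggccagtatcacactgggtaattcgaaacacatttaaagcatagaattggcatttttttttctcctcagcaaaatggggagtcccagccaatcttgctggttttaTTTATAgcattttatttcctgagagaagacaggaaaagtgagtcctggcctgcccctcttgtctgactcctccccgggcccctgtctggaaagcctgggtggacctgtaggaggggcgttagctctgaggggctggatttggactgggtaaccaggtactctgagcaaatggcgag
Thsd4: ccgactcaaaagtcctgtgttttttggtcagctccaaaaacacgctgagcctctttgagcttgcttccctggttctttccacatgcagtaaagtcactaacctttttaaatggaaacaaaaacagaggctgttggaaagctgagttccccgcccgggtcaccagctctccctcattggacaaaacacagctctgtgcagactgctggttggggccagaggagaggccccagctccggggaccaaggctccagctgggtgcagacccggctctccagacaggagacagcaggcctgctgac
A TATA box was found in 5 of the 11 windows, against 13.6% of 32841 windows of the same length. The one in the Postn window began 26 bases before the start site (position -26), and the one in the Thbs2 window lay on the opposite strand at -126. Both Tnc windows overlap and hold the same TATA box, and the remaining one was in a Spp1 window at -211. The AP-1 site TGANTCA (7.81% of all windows), the TEAD site GGAATG (14.7%) and the CArG box (1.63%) were in none of the 11 windows.

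In basal cells Sparc, Thbs1, Postn and Fbln2 made up nearly all of the transcript of the 10 genes, and in luminal TEB Thbs1 and Thsd4 led. Levels of different genes are compared per length, as fragments per length and depth (FPKM, the TMM-scaled CPM divided by the gene length in kilobases that the files give). In basal duct the mean level was 629 ± 77.2 FPKM for Sparc, 571 ± 175 for Thbs1, 482 ± 126 for Postn and 254 ± 102 for Fbln2 (SD, n = 3), and each of the other 6 genes was at 7.82 FPKM or below. The first 3 of these did not differ beyond their spread, and by mean FPKM they ranked 81, 94 and 123 of the 17370 genes tested in that group. In basal TEB Sparc (410 ± 39.1 FPKM) and Fbln2 (390 ± 49.4) were level within their spread, followed by Thbs1 (153 ± 68.2), Postn (24.5 ± 24.8) and Fn1 (15.4 ± 3.55), all with n = 3. Luminal cells held far less: Thbs1 led at 28.6 ± 9.63 FPKM in luminal TEB (n = 3) and 35.7 ± 23.6 in luminal duct (n = 2), and Thsd4 followed at 15.0 ± 2.57 FPKM in luminal TEB. The 10 genes together summed to 1840 to 2180 FPKM in basal duct, 898 to 1130 in basal TEB, 45.6 and 110 in luminal duct and 44.9 to 63.1 in luminal TEB, with no overlap between the 3 basal duct and 3 basal TEB libraries.

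**Figure D1:**
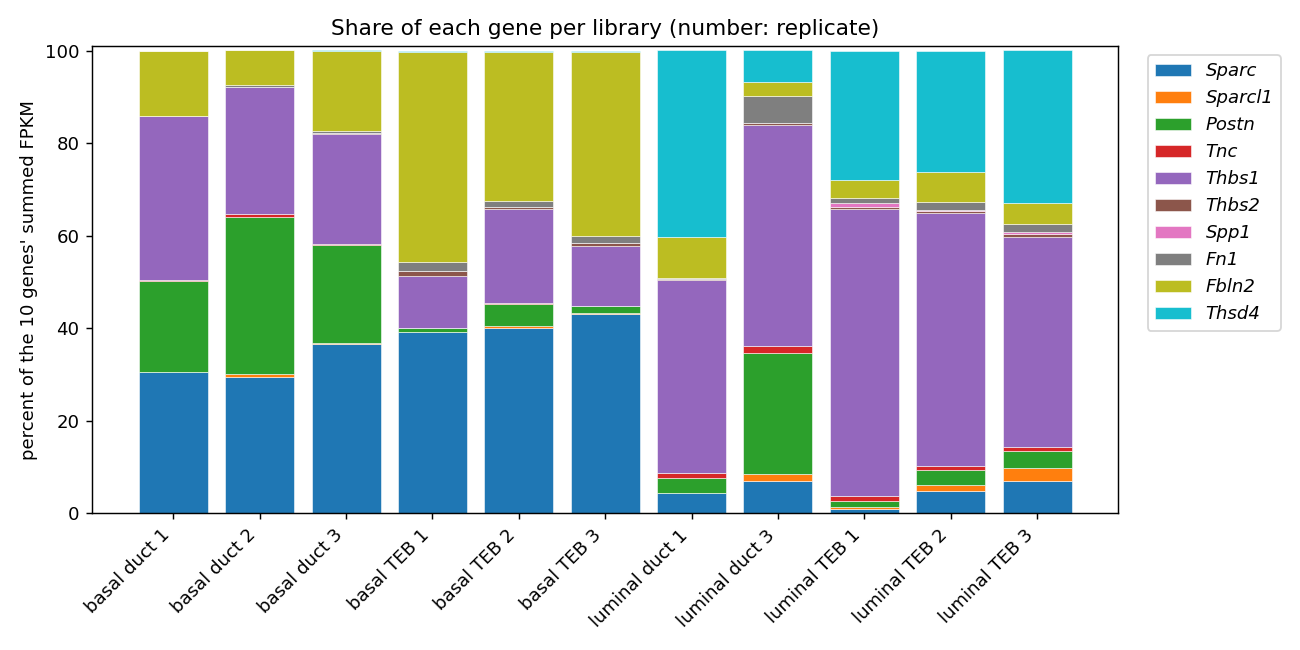
Share of each of the 10 genes in their summed FPKM (y axis, percent) in each of the 11 libraries (x axis, the number is the replicate). Sparc, Thbs1, Postn and Fbln2 made up 32.1%, 29.2%, 24.6% and 13% of the mean in basal duct, while in basal TEB Postn was down to 2.44% and Fbln2 up to 38.8%, and Thbs1 with Thsd4 filled most of the luminal TEB bars (55.1% and 28.9%).

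Sparc, a collagen-binding glycoprotein of the matrix (Entrez 20692, chromosome 11, 55394159 to 55420080, minus strand, mm10), was the most even member within each basal group. It stood at 1530, 1240 and 1560 CPM in basal duct replicates 1 to 3 and at 890, 1050 and 891 CPM in basal TEB replicates 1 to 3. In luminal duct it was at 4.6 and 17.6 CPM, and in luminal TEB at 1.5, 5.22 and 7.26 CPM. Every basal library was far above every luminal one, and the basal duct libraries were above the basal TEB libraries by less than the test could resolve (log2 fold change -0.62, SE 0.50, edgeR FDR 0.617). Basal cells exceeded luminal cells by 7.04 on the log2 scale in ducts (SE 0.78, edgeR FDR 5.19e-05) and by 7.65 in TEBs (SE 0.66, edgeR FDR 5.46e-06).

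Sparcl1, a relative of Sparc that is abundant in blood vessels (Entrez 13602, chromosome 5, 104079108 to 104114088, minus strand), had a single high library. Basal duct replicates 1 to 3 were at 1.90, 37.6 and 3.10 CPM and basal TEB replicates at 0, 14.3 and 4.09 CPM, while luminal duct was at 0 and 5.43 CPM and luminal TEB at 0.829, 1.96 and 3.85 CPM. All 4 groups overlapped, and no comparison passed the test (edgeR FDR 0.463 to 0.976 over the 4 pairwise comparisons). The replicates numbered 2 were the highest in both basal groups, and the summed level of 8 endothelial markers was also highest there: 280 CPM in basal duct replicate 2 against 16.8 and 27.0 in the other basal duct libraries, and 52.5 CPM in basal TEB replicate 2 against 13.5 and 6.02. All 8 endothelial markers had reads in basal duct replicate 2. The same was so in basal duct replicate 3, basal TEB replicate 2 and luminal TEB replicates 2 and 3. Pecam1, which encodes the CD31 used in the gate, was at 73.0 CPM in basal duct replicate 2. In the libraries with no Sparcl1 read, 4 of the 8 (Cdh5, Pecam1, Tek, Tie1) had no read in basal TEB replicate 1 and 5 (Cdh5, Emcn, Kdr, Tek, Tie1) had none in luminal duct replicate 1. Basal TEB replicate 1 did have Emcn (5.37 CPM), Kdr (4.56 CPM) and Vwf (3.46 CPM). Its Kdr level was above that of basal duct replicates 1 and 3 (3.79 and 3.82 CPM). It was also the library with the fewest genes detected (13302). In luminal cells the sum was 42.7 and 68.7 CPM in duct and 22.9 to 31.6 in TEB. Vwf alone gave 38.6 and 26.1 CPM of it in luminal duct replicates 1 and 3. In luminal TEB Vwf gave 12.8 to 16.8 CPM. The part of these markers in the level of Sparcl1 was not tested.

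Periostin (Postn, Entrez 50706, chromosome 3, 54359267 to 54391041, plus strand), a matrix protein that binds integrins and collagen, differed most between the basal groups among the members detected in both. It was at 1400, 2060 and 1300 CPM in basal duct and at 21.9, 174 and 46.3 CPM in basal TEB. Luminal duct was at 5.03 and 94.3 CPM and luminal TEB at 2.38, 5.18 and 5.47 CPM. The basal duct libraries were all above the basal TEB libraries, and the highest luminal library, luminal duct replicate 3, lay within the range of basal TEB. The log2 fold change of basal TEB against basal duct was -4.29 (SE 0.97) and missed the threshold at an edgeR FDR of 0.0575. It passed without basal TEB replicate 2 (log2 fold change -5.58, edgeR FDR 0.0305), without luminal duct replicate 1 (-4.29, edgeR FDR 0.0112) and without luminal duct replicate 3 (-4.29, edgeR FDR 0.0105). Basal exceeded luminal cells in ducts (log2 fold change 5.0, SE 1.2, edgeR FDR 0.0101) and in TEBs (4.22, SE 0.97, edgeR FDR 0.00703), and without luminal duct replicate 3 the value in ducts was 8.30. From single cells the study itself names Postn as higher in ductal than in TEB basal cells, so that direction was already reported.

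Fibroblasts of the stroma also make periostin, so a list of 8 fibroblast markers was summed. It reached 409, 787 and 460 CPM in basal duct replicates 1 to 3 and 209, 373 and 214 CPM in basal TEB replicates 1 to 3, against 41.4 to 53.6 CPM in luminal TEB and 241 and 274 CPM in luminal duct. In luminal duct replicate 1, however, 231 of the 241 CPM were Col6a3, and without that gene the sum was 9.81 CPM there and 219 CPM in luminal duct replicate 3, the one with more Postn. Within each basal group the library with the highest sum was also the one with most Postn. The sum in basal duct replicate 2 was mainly Dcn (399 CPM) and Col3a1 (258 CPM), while Fap was at 0.0526 CPM. In basal TEB replicate 1, the lowest for both, 4 of the 8 had no read (Col6a3, Dpt, Fap, Lum), and Col1a1, Col3a1, Dcn and Pdgfra had reads in every library. That library also had the fewest genes detected (13302) and 37.5% mitochondrial reads. Other lists lacked reads there too, with 7 of the 8 adipocyte and 6 of the 8 pericyte markers at 0. Between basal duct and basal TEB the fibroblast sums did not overlap either, and their part in the Postn level was not tested.

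**Figure D2:**
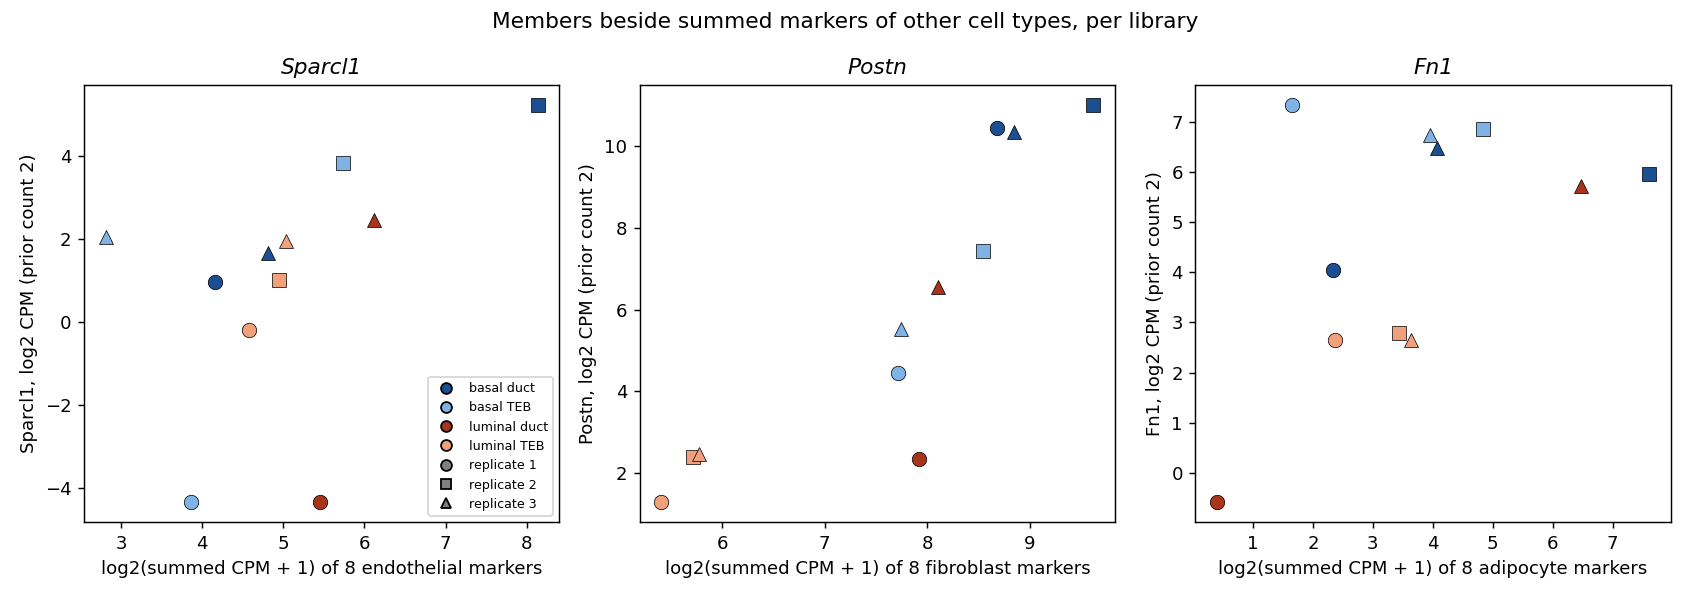
Sparcl1, Postn and Fn1 (y axes, log2 CPM with a prior count of 2) against the summed CPM of 8 endothelial, 8 fibroblast and 8 adipocyte markers (x axes, log2 of the sum plus 1), 1 point per library, with the colour giving the group and the shape the replicate. Basal duct replicate 2 was highest for all 3 marker sums and for Sparcl1 (37.6 CPM) and Postn (2060 CPM), but not for Fn1 (61.7 CPM).

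Tenascin C (Tnc, Entrez 21923, chromosome 4, 63959785 to 64047015, minus strand), a hexameric glycoprotein known from growing and healing tissue, followed the order of Postn at lower levels. It was at 54.8, 83.7 and 27.9 CPM in basal duct and at 3.98, 16.7 and 2.69 CPM in basal TEB. Luminal duct was at 3.12 and 11.9 CPM and luminal TEB at 5.04, 2.72 and 2.56 CPM. Only basal duct stood apart, and the other 3 groups overlapped each other. The log2 fold change of basal TEB against basal duct was -2.83 (SE 0.74, edgeR FDR 0.105), and it passed without basal TEB replicate 2 (-4.11, edgeR FDR 0.0202). Basal exceeded luminal cells in ducts (log2 fold change 2.89, SE 0.87, edgeR FDR 0.0331), a call that was lost without basal duct replicate 1 (2.90), without basal duct replicate 2 (2.47) and without luminal duct replicate 1 (2.22), and the value in TEBs was 1.19 (SE 0.71, edgeR FDR 0.255).

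Thbs1 and Thbs2 encode the closely related thrombospondins 1 and 2, secreted trimers that bind CD36 and CD47 and restrain vessel growth. Thbs1 (Entrez 21825, chromosome 2, 118111876 to 118127133, plus strand) was at 4470, 2920 and 2560 CPM in basal duct and at 644, 1340 and 670 CPM in basal TEB. It was at 111 and 304 CPM in luminal duct and at 228, 152 and 118 CPM in luminal TEB. The order was basal duct, basal TEB, then the luminal groups, which overlapped each other. The log2 fold change of basal TEB against basal duct was -1.91 (SE 0.43, edgeR FDR 0.0592), which passed without basal TEB replicate 2 (-2.38, edgeR FDR 0.0305) and without luminal duct replicate 1 or 3 (both -1.91, edgeR FDR 0.0258 and 0.0245). Basal exceeded luminal cells by 4.0 in ducts (SE 0.56, edgeR FDR 0.000289) and by 2.41 in TEBs (SE 0.44, edgeR FDR 0.0015).

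Thbs2 (Entrez 21826, chromosome 17, 14665500 to 14694262, minus strand) had the opposite order of the basal groups. It was at 4.83, 9.31 and 26.2 CPM in basal duct and at 60.4, 28.3 and 37.0 CPM in basal TEB, with 0.296 and 2.02 CPM in luminal duct and 0.819 to 1.27 CPM in luminal TEB. The lowest basal TEB library was just above the highest basal duct library, and the log2 fold change of 1.64 (SE 0.69) did not pass the test (edgeR FDR 0.306). Basal exceeded luminal cells in TEBs by 5.26 (SE 0.81, edgeR FDR 0.000467) and in ducts by 3.57 (SE 0.90, edgeR FDR 0.0135), and the call in ducts was lost without luminal duct replicate 1 (2.74).

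Osteopontin (Spp1, Entrez 20750, chromosome 5, 104435111 to 104441053, plus strand), a secreted phosphoprotein that binds integrins and CD44, was close to the limit of detection. It had no read in any of the 5 duct libraries. In luminal TEB it had 41, 17 and 24 reads (0.919, 0.324 and 0.462 CPM) and in basal TEB 0, 5 and 34 reads (0, 0.105 and 0.952 CPM). A count of 0 allows up to 3 reads, pooled over the group 0.0236 CPM in basal duct and 0.044 CPM in luminal duct. With the TEB reads taken at their count, the pooled level was at least 16.4-fold higher in basal TEB than in basal duct. In luminal TEB it was at least 12.5-fold higher than in luminal duct. These bounds allow for the counting error of the duct count only, not for that of the TEB reads or for the spread between libraries. The bound in basal cells rests on basal TEB replicate 3, without which 5 reads were left and it was at least 3.27-fold, and without luminal TEB replicate 1 the bound in luminal cells was at least 8.93-fold. Neither difference passed the test across genes (edgeR FDR 0.272 and 0.289). In GENCODE M21, 18.8% of the exonic bases of Spp1 are shared with Gm42793 on the same strand, while the overlaps with other genes for Tnc (2.26%), Thbs1 (3.42%) and Fn1 (2.50%) lie on the opposite strand, which the library kit does not mark. The reads were counted against a RefSeq annotation instead, and whether it holds these overlapping genes was not checked.

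Fibronectin (Fn1, Entrez 14268, chromosome 1, 71585473 to 71653280, minus strand) was at 16.4, 61.7 and 88.7 CPM in basal duct and at 162, 116 and 107 CPM in basal TEB. Luminal TEB was even, at 6.23, 6.82 and 6.18 CPM, whereas the luminal duct libraries were at 0.615 CPM (27 reads) and 52.9 CPM (1286 reads). All basal TEB libraries were above all basal duct libraries, with a log2 fold change of 1.21 (SE 0.94) that did not pass the test (edgeR FDR 0.608). Basal exceeded luminal cells in TEBs by 4.32 (SE 1.07, edgeR FDR 0.0107). In ducts the value was 1.06 (SE 1.08, edgeR FDR 0.521), and without luminal duct replicate 3 it was 6.49 and passed the test. Luminal duct replicate 3 also had more of 8 adipocyte markers (88.0 against 0.319 CPM, of which Fabp4 75.1, with 4 and 7 of the 8 without a read, Adipoq among them in both), of 8 basal markers (267 against 99.6 CPM) and of mitochondrial reads (28.5% against 8.51%) than luminal duct replicate 1. The fibroblast markers Col3a1 (123 against 0.0455 CPM), Col1a1 (43.6 against 0.91), Dcn (24.6 against 2.89) and Dpt (8.84 against 0) and the leukocyte marker Ptprc (26.5 against 0.228) were higher there too, while Col6a3 was lower (55.3 against 231). Of the 8 basal markers Trp63 alone was lower there (0.206 CPM, 5 reads, against 3.44 CPM, 151 reads). The part of these markers, the adipocyte and basal ones included, and of the mitochondrial reads in the Fn1 level was not tested.

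Fibulin 2 (Fbln2, Entrez 14115, chromosome 6, 91212460 to 91272540, plus strand), which binds fibronectin, laminins and fibrillin, was at 1370, 613 and 1440 CPM in basal duct and at 2000, 1640 and 1600 CPM in basal TEB. Luminal duct was at 18.2 and 15.3 CPM and luminal TEB at 10.7, 13.7 and 9.02 CPM. Neither pair of groups overlapped, basal TEB lying above basal duct and luminal TEB below luminal duct, but neither difference passed the test (log2 fold change 0.62, SE 0.30, edgeR FDR 0.366 and -0.59, SE 0.33, edgeR FDR 0.390). Basal exceeded luminal cells by 6.09 in ducts (SE 0.44, edgeR FDR 3.31e-06) and by 7.29 in TEBs (SE 0.39, edgeR FDR 2.23e-07).

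Thsd4 (Entrez 207596, chromosome 9, 59966931 to 60522113, minus strand), whose protein, also called ADAMTSL6, binds fibrillin 1 in microfibrils, was the member with more transcript in luminal than in basal cells. It was at 6.40, 3.60 and 7.77 CPM in basal duct and at 18.1, 24.5 and 18.0 CPM in basal TEB. Luminal duct was at 166 and 67.2 CPM and luminal TEB at 159, 113 and 134 CPM. The basal groups did not overlap each other or the luminal groups, while the luminal groups overlapped. Thsd4 was higher in basal TEB than in basal duct (log2 fold change 1.77, SE 0.35, edgeR FDR 0.0331, higher in 3 of 3 libraries). This call was lost without basal duct replicate 1 (1.80) or 2 (1.51), without basal TEB replicate 1 (1.85), 2 (1.55) or 3 (1.85) and without any of the luminal TEB libraries (1.74 each). Basal cells fell below luminal cells by a log2 fold change of -4.30 in ducts (SE 0.40, edgeR FDR 1.54e-05) and -2.74 in TEBs (SE 0.36, edgeR FDR 0.000131).

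**Figure D3:**
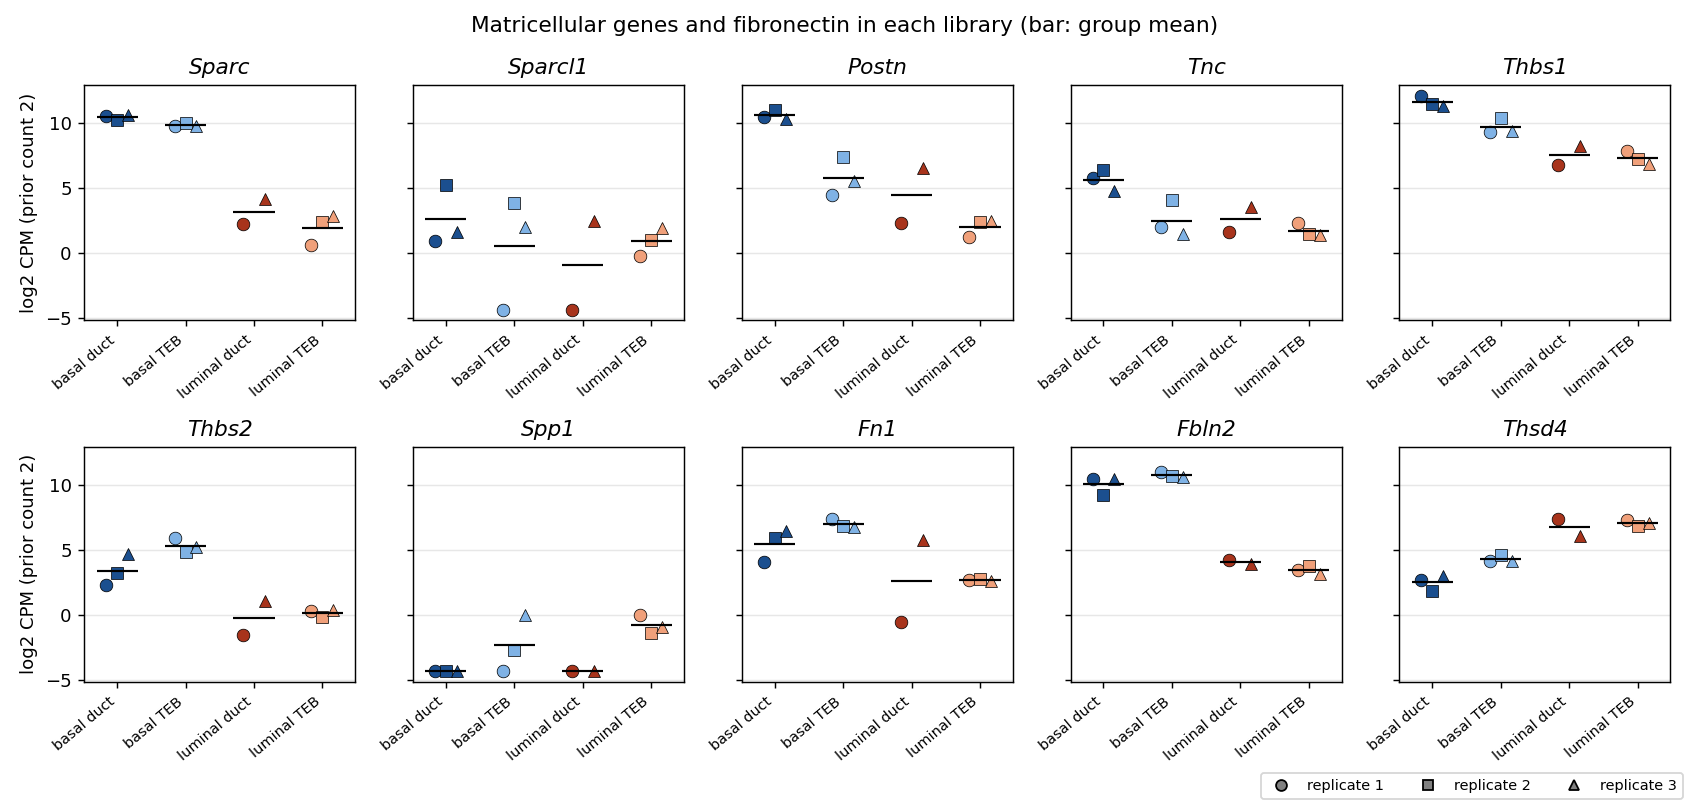
Level of each of the 10 genes in every library (y axis, log2 CPM with a prior count of 2), by group (x axis), with the shape giving the replicate and the bar the group mean. Sparc, Thbs1 and Fbln2 were high in all 6 basal libraries, Postn and Tnc were highest in the 3 basal duct libraries, Thsd4 was highest in the luminal libraries, and the lowest points of Sparcl1 and Spp1 are libraries with a count of 0.

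Basal and luminal cells were compared to ask which compartment expresses these genes. In ducts 7 of the 10 genes passed the test, where 22.3% of all genes tested did. Sparc, Postn, Tnc, Thbs1, Thbs2 and Fbln2 were higher in basal cells and Thsd4 was lower, with 12.6% of all genes higher and 9.71% lower. The basal and luminal duct libraries of the same 7 genes did not overlap, as was so for 46% of all genes (24.8% higher, 21.2% lower). In TEBs 7 of 10 passed as well, against 25.1% of all genes: Sparc, Postn, Thbs1, Thbs2, Fn1 and Fbln2 were higher in basal cells (13.2% of all genes) and Thsd4 was lower (11.8%), and the libraries of these 7 did not overlap, nor did those of 49.8% of all genes (22.6% higher, 27.2% lower). The median log2 fold change was 3.57 in ducts over 9 genes, Spp1 having no read there, and 3.32 in TEBs over all 10, where the medians over all genes were 0.08 and 0.04. The comparisons in ducts and in TEBs share no library. Sparc and Postn are among the basal genes that the study itself names, so their direction here is not independent of that choice.

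**Figure D4:**
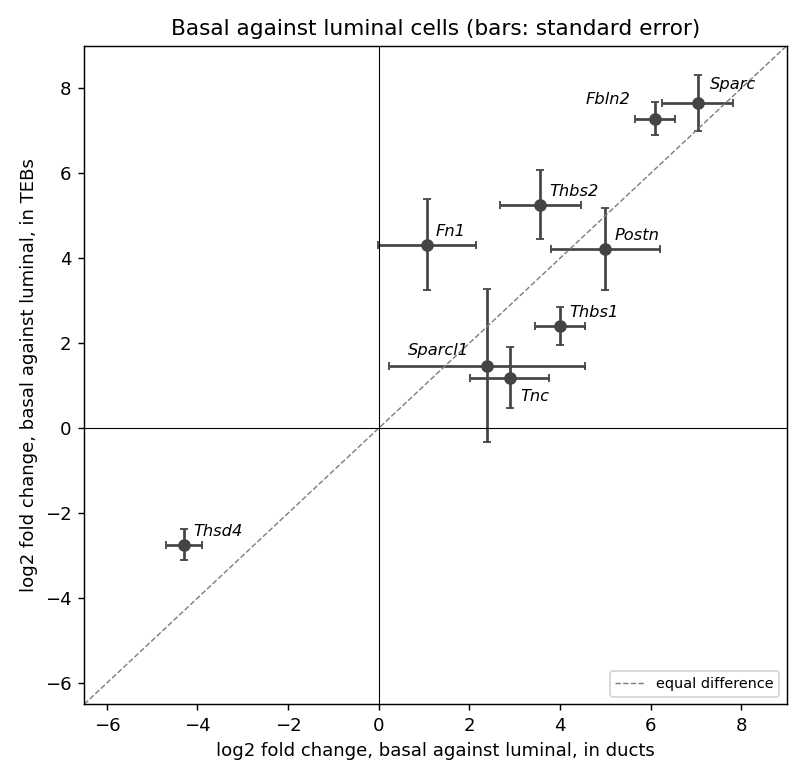
Log2 fold change of basal against luminal cells in ducts (x axis) and in TEBs (y axis) for 9 genes, Spp1 being left out for want of reads in the ducts, with bars for the standard error and a dashed line where both would be equal. Fbln2 and Sparc lie at the upper right (6.09 and 7.04 in ducts, 7.29 and 7.65 in TEBs), Fn1 lies far above the line (1.06 in ducts, 4.32 in TEBs) and Thsd4 is alone at the lower left.

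The comparison of TEBs with ducts asks how the growing ends differ from the tree behind them. In basal cells 1 of the 10 genes, Thsd4, passed the test, and 1.32% of all genes did, 0.167% higher and 1.16% lower. For 8 of the genes the basal TEB and basal duct libraries did not overlap, 4 higher in TEB (Thbs2, Fn1, Fbln2, Thsd4) and 4 lower (Sparc, Postn, Tnc, Thbs1), while 20.8% of all genes did not overlap (8.88% higher, 11.9% lower). At an unadjusted p under 0.05 there were 6 of the 10, Spp1 among them, and 14.5% of all genes, and the median size of the log2 fold change, regardless of sign, was 1.64 over the 9 genes with reads in both groups (1.71 over all 10 with Spp1 at its lower bound) and 0.49 over all genes. The basal markers also differed between these groups: of the 8 summed above, Krt5, Krt14, Krt17 and Oxtr were lower in basal TEB (log2 fold changes -2.30, -2.87, -1.96 and -2.89, edgeR FDR 0.0249, 0.00766, 0.0201 and 0.00175). Set against 1000 CPM of the 8 basal markers in the same library, Postn was at 73.9 to 102 CPM in basal duct and 3.97 to 20.1 in basal TEB, and Thbs1 at 145 to 235 and 111 to 155, whereas Sparc was at 61.6 to 96.2 and 121 to 162 and Fbln2 at 30.4 to 88.3 and 189 to 363. On that scale Postn remained without overlap and lower in basal TEB, Thbs1 overlapped, and Sparc lay on the other side, higher in basal TEB. The marker sum itself was 16300 to 20200 CPM in basal duct and 5510 to 8660 in basal TEB. A member that fell less than this sum must rise or overlap on that scale, so the turn of Sparc reflects the choice of denominator. In such bulk libraries fewer cells that express a gene and less RNA per cell cannot be told apart.

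In luminal cells none of the 10 genes passed the test between TEB and duct by edgeR's quasi-likelihood test, where 1.41% of all genes did (0.639% higher, 0.771% lower). At an unadjusted p under 0.05 there were 3 of the 10 (Sparc, Postn, Spp1) and 16.6% of all genes, DESeq2's Wald test called 1 (Postn) and limma voom called 0. The largest differences apart from Spp1 were those of Postn (log2 fold change -3.51, SE 0.99, edgeR FDR 0.104) and Fn1 (-2.05, SE 1.05, edgeR FDR 0.346). Both rested on luminal duct replicate 3: without it Postn was at -0.21 and Fn1 at 3.38, and without luminal duct replicate 1 both passed the test at -4.43 and -3.04. Spp1 was higher and Fbln2 lower without overlap, where with 2 against 3 libraries 43.7% of all genes did not overlap (26.2% higher, 17.4% lower).

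The change from duct to TEB was also tested for a difference between basal and luminal cells (the interaction term). None of the 10 genes passed edgeR's test, which 0.443% of all genes did (0.0806% higher, 0.363% lower). At an unadjusted p under 0.05, which 14.7% of all genes reached, there were 4: Thbs1 (-1.59, edgeR FDR 0.276), Fn1 (3.26, edgeR FDR 0.310), Fbln2 (1.21, edgeR FDR 0.241) and Thsd4 (1.56, edgeR FDR 0.202), as the log2 change in basal cells minus that in luminal cells. DESeq2 and limma voom called 0 of the 10. Fn1 passed without luminal duct replicate 1 (4.25) and was at -2.17 without luminal duct replicate 3.

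**Figure D5:**
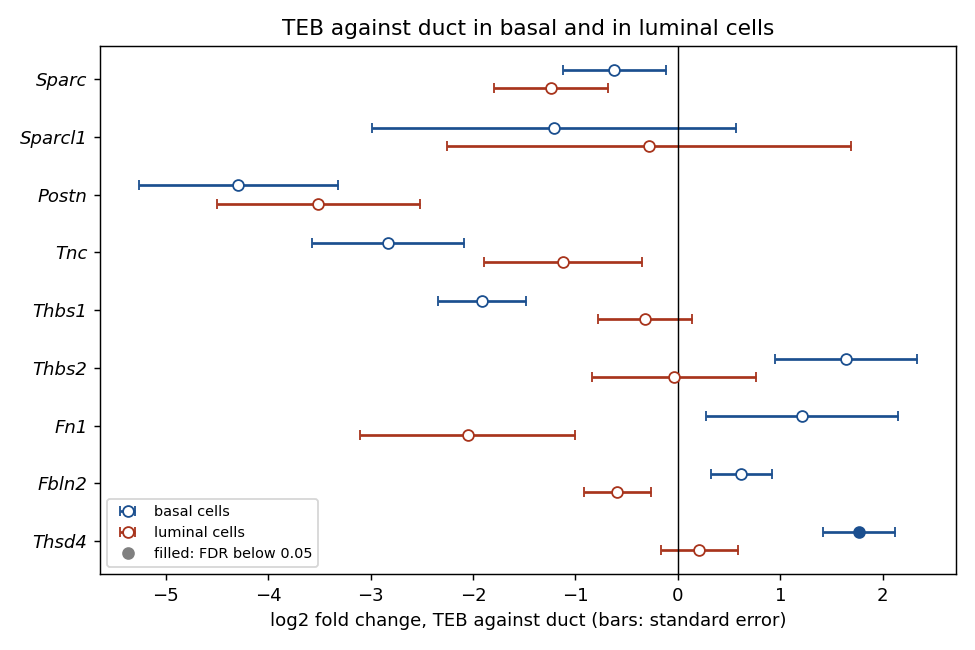
Log2 fold change of TEB against duct (x axis, bars for the standard error) for 9 genes in basal and in luminal cells; Spp1 had no read in the ducts and is left out. The filled point is Thsd4 in basal cells (1.77), and the farthest points to the left are Postn in basal (-4.29) and in luminal cells (-3.51).

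Other genes whose products belong to the same families or bind these proteins were taken from 3 lists. Over all genes tested, 12.6% were higher and 9.71% lower in basal cells in ducts, and 13.2% and 11.8% in TEBs. The medians over all genes were 0.08 and 0.04. Between TEB and duct 1.32% of all genes passed in basal and 1.41% in luminal cells, and 0.443% passed for the interaction. Of 28 further matricellular genes 24 were tested, and 7 were higher in basal cells and 0 lower in ducts, 7 higher and 1 lower (Tnr) in TEBs, with a median log2 fold change of 2.65 and 2.51. Ccn2, a matricellular protein of the CCN family, had 712 ± 199 CPM in basal duct (SD, n = 3) against 14.6 ± 16.8 in luminal duct (n = 2) (log2 fold change 5.62, SE 0.83, edgeR FDR 4e-04), and Spock2 (9.13 in ducts) and Spon2 (7.66 in TEBs) were higher in basal cells too. Ccn4, at 35.5 ± 8.82 CPM in basal duct (SD, n = 3), and Spock3 had no read in luminal duct, which made their pooled levels at least 817-fold and at least 349-fold higher in basal duct. Between TEB and duct a single gene of this list passed, Adamtsl4, a relative of Thsd4, which was lower in basal TEB (3.67 ± 1.10 against 17.5 ± 1.21 CPM, SD, n = 3, log2 fold change -2.25, SE 0.44, edgeR FDR 0.0299).

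Of 19 genes of fibulins and elastic fibres, all tested, 12 were higher in basal cells in ducts and 11 in TEBs, and 0 were lower in either (median log2 fold change 4.55 and 3.29). Of all genes 12.6% were higher in ducts and 13.2% in TEBs. Fbln1 had 100 ± 55.8 CPM in basal duct, 218 ± 27.2 in basal TEB (SD, n = 3 each) and 0.200 ± 0.167 in luminal duct (n = 2), with a log2 fold change of 8.78 between the cell types in ducts. Hmcn1 (9.15 in ducts) and the microfibril component Fbn1 (7.14 in TEBs) were higher in basal cells as well. Fbln5 and Fbln7 were among those called, with 1 read over luminal TEB for Fbln5 and 2 over luminal duct for Fbln7, so no fold is given. Ltbp1, which tethers latent TGF-beta to the matrix, was the gene of this list that passed between TEB and duct: it was lower in luminal TEB than in luminal duct (24.4 ± 4.74, n = 3, against 88.7 ± 17.3 CPM, n = 2, SD, log2 fold change -1.86, SE 0.33, edgeR FDR 0.0227), and the interaction passed too (2.55, SE 0.45, edgeR FDR 0.0330).

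Of 20 receptors and binding partners, 9 were higher and 1 lower in basal cells in ducts, and 6 were higher and 3 lower in TEBs. Of all genes 9.71% and 11.8% were lower there, so the lower counts are not read as a trait of this list. The integrin subunits Itga9 (6.94 in TEBs), Itga8 (4.88 in TEBs) and Itgb3 (2.44 in ducts), which pair into receptors for tenascin, osteopontin and fibronectin, and the clearance receptor Lrp1 (3.64 in ducts) were higher in basal cells. CD29, the product of Itgb1, was required by the gate in both cell types alike, which were split by the GFP level. Itgb1 was also higher in basal cells, and its levels come from cells selected for that protein. Tgm2, a transglutaminase that crosslinks fibronectin, went the other way, with 46.1 ± 12.4 CPM in basal TEB and 3430 ± 1850 in luminal TEB (SD, n = 3, log2 fold change -6.22, SE 0.60, edgeR FDR 1.23e-05), and Sdc1 and Sdc4 were the other genes lower in basal TEB than in luminal TEB. Between TEB and duct, Sdc4 was lower in basal TEB (153 ± 24.4 against 396 ± 114 CPM, SD, n = 3, log2 fold change -1.38, SE 0.24, edgeR FDR 0.0159) and Sdc1 higher in luminal TEB (303 ± 29.1, n = 3, against 86.5 ± 32.4 CPM, n = 2, SD, log2 fold change 1.81, SE 0.34, edgeR FDR 0.0276), both being syndecans, heparan sulfate proteoglycans that bind matrix proteins at the cell surface.

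The genes whose pattern over the 11 libraries was most like that of a member were those with the smallest mean absolute difference of gene-centred log2 CPM, among 9947 genes with a group mean of at least 16 CPM. The closest match was between Fbln2 and the laminin chain Lamb1 (0.27), followed by Jag2 (0.38) and Dpysl3 (0.44). Sparc was most like Ackr4 and Phyhip (both 0.33) and Lmo1 (0.35), and Thbs1 most like Mgp and Rnf39 (both 0.40) and Arc (0.43). Thsd4 was most like Sort1 (0.39), Prag1 (0.43) and Cdk18 (0.46), all 3 with more transcript in luminal cells. Postn had looser matches in Matn4 (0.73), Mmp2 (0.80) and Igfbp7 (0.82), as did Tnc in Fry (0.54), Clca3a1 and Nedd9 (both 0.64). Thbs2 was most like Kctd7 (0.47), Cpxm1 and Adamts4 (both 0.57), and Fn1 most like 4930503L19Rik (0.67), Thbs2 (0.70) and Rnf144a (0.77). The libraries over which these genes were matched share one split by cell type and the same depths.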

How the data were processed

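Bulk RNA-seq of sorted basal and luminal mammary cells from TEBs and ducts (4 groups, 11 libraries) was analysed from the gene-level read counts that the authors deposited. The authors aligned the paired reads to mm10 and counted them per Entrez gene with featureCounts of the Rsubread package against its inbuilt RefSeq annotation, with no normalization, per the study's methods and the submitters' processing notes (versions are not given in the sources used here). The gene length beside the counts is another deposited value from the same annotation. Symbols were found for 25275 of the 27179 genes.

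From the counts, 17370 genes passed edgeR's filterByExpr (at least 10 counts in enough libraries and 15 in total) and were scaled by TMM and tested with edgeR's quasi-likelihood test in 1 model over all 4 groups, with Benjamini-Hochberg adjustment over all genes tested and a threshold of 0.05 (R 4.3.3, edgeR 4.0.16, limma 3.58.1, DESeq2 1.42.0). Log2 CPM used a prior count of 2, FPKM were computed from the CPM and the length, and standard errors were derived from the fold change and F. The limit of a count of 0 was set at 3 reads. The scripts were tested on simulated counts. The precision of low values is limited by these counts: 1 read was worth 0.0191 to 0.0577 CPM.

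All 10 genes were named whatever their values. Of each further list, the up to 5 called genes with the largest fold change and a mean log2 CPM of at least 2 in some group were named, and genes named beside small counts or single marker sums were named after their values were seen. The members and lists were chosen with earlier results of these data known. The sources used here do not say that a replicate number marks a pool shared between groups. Deviations of libraries with the same number correlated at 0.06 to 0.12 between basal duct and basal TEB and at 0.07 to 0.16 in luminal cells. Between basal and luminal cells they correlated at 0.02 to 0.08 in TEBs and -0.07 to 0.09 in ducts. The main fit used no block and so ignored any such pairing, and a fit with the block is given below. Promoter windows came from RefSeq, and protein sequences were not used here.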

Additional observations from a re-analysis of the deposited data

How the results depend on the processing

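Basal against luminal cells held best: in TEBs the 7 calls among the 10 genes (Sparc, Postn, Thbs1, Thbs2, Fn1, Fbln2 and Thsd4) were made under all 22 alternatives, and in ducts Sparc, Postn, Thbs1, Fbln2 and Thsd4 were called under all 22, Tnc under 17 and Thbs2 under 19. The lowest number of the 10 genes called there in ducts was 5. The highest numbers came from fits with a lone luminal duct library, replicate 1, in which Sparcl1 had no read, and are not given. Between basal TEB and basal duct the calls depended on the setting. The 1 call became 0 with library size alone, 3 without a filter on low counts (Postn, Thbs1, Thsd4), 4 by edgeR's likelihood ratio test and 4 by DESeq2's Wald test (Postn, Tnc, Thbs1, Thsd4), 2 by limma voom with sample weights and 2 in a fit of these groups only (Postn, Thbs1), and 2 without both libraries of the highest mitochondrial share (Postn, Thsd4), an alternative chosen after seeing the data. Leaving out 1 library gave 0 to 3. With the replicate number as a block there were 2 calls (Postn, Thsd4). Between basal duct and basal TEB all 6 libraries correlated best with their own number, a hint from the data and not from the design. Between luminal duct and luminal TEB 3 of 4 did, between basal TEB and luminal TEB 5 of 6, and between basal duct and luminal duct 2 of 4. Deviations were taken from the group mean, so those of the 2 luminal duct libraries mirror each other. Luminal TEB replicate 1, for one, correlated at 0.16 and -0.16 with them. The counts with luminal duct are therefore not independent. The block also ended the call of Tnc in ducts (2.33). Postn was called under 10 of 22 alternatives (edgeR, DESeq2 or limma FDR 8.47e-05 to 0.256), Thbs1 under 8, Tnc under 3 and Thsd4 under 11, with the direction kept in each. Limma voom ended the calls of Tnc (3.22) and Thbs2 (4.34) in ducts, and the fit of these groups only that of Thbs2 (3.58). Between luminal TEB and luminal duct the likelihood ratio test and DESeq2 each called 1 gene (Postn), and leaving out 1 library gave 0 to 2. For the interaction leaving out 1 library gave 0 to 1.

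Several log2 fold changes that were not called turned their direction. Between luminal TEB and luminal duct these were, with library size alone, Sparcl1 (0.27), Thbs1 (0.14) and Thbs2 (0.44); with limma voom Sparcl1 (4.14), Thbs2 (0.86) and Fn1 (1.43); and with the replicate block Sparcl1 (0.67) and Thbs2 (0.49). Without both libraries of the highest mitochondrial share they were Sparc (0.04), Tnc (0.16), Thbs1 (0.60), Thbs2 (1.89), Fn1 (3.39) and Thsd4 (-0.28). Leaving out 1 library moved this comparison from -1.91 to 0.02 for Sparc, -1.29 to 0.09 for Sparcl1, -1.79 to 0.14 for Tnc, -0.87 to 0.59 for Thbs1, -0.88 to 1.87 for Thbs2, -3.04 to 3.38 for Fn1 and -0.30 to 1.01 for Thsd4; the turn came without luminal duct replicate 3 except for Sparcl1 (without luminal TEB replicate 1), and Thbs2 also turned without luminal TEB replicate 2 (0.12). For Sparcl1 the basal TEB against basal duct value was 0.12 with limma voom and -2.81 to 1.29 leaving out 1 library, the basal against luminal value -0.11 to 2.91 in ducts, and in TEBs -0.31 with the block and -0.11 to 2.17. For Tnc in TEBs it was -0.09 to 1.60. In the interaction limma voom gave -0.06 for Sparc and -0.23 for Fn1, the fit without both libraries of the highest mitochondrial share gave -0.61 for Sparc, -0.60 for Thbs2 and -2.38 for Fn1, and leaving out 1 library gave -0.64 to 1.29 for Sparc, -2.50 to 1.58 for Sparcl1, -4.08 to 0.14 for Postn, -0.23 to 2.61 for Thbs2 and -2.17 to 4.25 for Fn1. The cause was not tested.

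Over all genes the calls were 230 (57 to 874 over the alternatives) between basal TEB and basal duct, 245 (10 to 1305) between luminal TEB and luminal duct, 3878 (2728 to 5147) and 4354 (3048 to 7140) between basal and luminal cells in ducts and TEBs, and 77 (7 to 753) for the interaction. Library size alone moved the median of all genes from 0.04 to 0.42 between luminal TEB and luminal duct, from 0.04 to -0.35 between basal and luminal TEB and from -0.13 to -0.63 in the interaction, and the share of calls that were higher from 12.6% to 1.75% between basal TEB and basal duct, from 52.8% to 37.2% between basal and luminal TEB and from 18.2% to 6.67% in the interaction. Spp1 gave no value where a group had no read, nor did Sparcl1 in the comparisons with luminal duct when that group was left with no read. A lone luminal duct library was assumed to vary like the other groups.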

Other observations

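Ratios of the members' FPKM within a library, chosen after their values were seen, differed between basal duct and basal TEB with no overlap in several pairs. Thbs1 over Thbs2 was 944, 320 and 99.8 in basal duct replicates 1 to 3 and 10.9, 48.4 and 18.5 in basal TEB replicates 1 to 3, against 381 and 154 in luminal duct and 95.1 to 196 in luminal TEB. Postn over Sparc was 0.638, 1.16 and 0.578 in basal duct and 0.0172, 0.116 and 0.0362 in basal TEB. Fbln2 over Sparc was 0.458, 0.253 and 0.471 in basal duct and 1.15, 0.804 and 0.923 in basal TEB, and Fbln2 over Postn was 0.219 to 0.815 in basal duct and 6.93 to 67.3 in basal TEB. Sparc over Sparcl1, also computed, overlapped (1100, 44.8 and 683 in basal duct, 99.3 and 295 in basal TEB replicates 2 and 3). Sparc, Postn and Thbs1 were each lower and Thbs2 and Fbln2 each higher in basal TEB without overlap. A ratio of one kind to the other therefore had to differ without overlap and adds no separate evidence. Ratios within a library do not depend on the scaling between libraries, and no test was made of them.

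Among the members themselves the closest patterns over the 11 libraries, by the mean absolute difference of gene-centred log2 CPM, were those of Thbs2 and Fn1 (0.70), Tnc and Thbs1 (0.80) and Sparc and Fbln2 (0.86), and the farthest were those of Sparc and Thsd4 (5.58). In the other marker lists of 8 genes, the macrophage and immune sum was 24.4 to 80.7 CPM in basal duct, 26.4 to 31.3 in basal TEB, 76.0 and 163 in luminal duct and 37.0 to 70.3 in luminal TEB. Most of it was Cd14 in luminal cells (63.5 and 117 CPM in duct, 31.6 to 53.3 in TEB) and Cd68 in basal cells (20.8 to 51.6 CPM), while Csf1r and Adgre1 were at 1.92 CPM or below in every library. The pericyte sum was 31.9 to 71.0, 4.56 to 29.4, 180 to 182 and 256 to 275 CPM in the same order, most of it Notch3 in luminal cells, and the Schwann cell sum was 189 to 366, 262 to 343, 76.8 to 140 and 67.2 to 102 CPM, most of it Sox10 in basal cells (168 to 326 CPM) and mainly Sox10 and Mbp in luminal cells (30.5 to 73.1 and 29.7 to 45.9 CPM). Adipocyte markers summed to 194 CPM in basal duct replicate 2, where Fabp4 was at 179 CPM, and to 4.07 and 15.8 CPM in the other basal duct libraries.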
